A study of Mus musculus with 6 samples.

Results

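Transcripts of 31 microglia and macrophage marker genes were followed in RNA-seq libraries of sorted cortical neurons. The genes were taken by symbol, and all 31 were found among the 35510 genes of the table. The 3 sponge libraries came from neurons given a miR-17-5p sponge plasmid, whose transcript draws off that microRNA, and the 3 control libraries from neurons given a control plasmid. All mice were wild type of the outbred stock Swiss (RjOrl:SWISS), electroporated in utero at E15.5 and collected at P0, the day of birth. A library used 50 ng of RNA from about 100000 cells pooled from about 10 brains, and the column names carry the word FACS, for sorting by flow cytometry. The labels do not say which cells besides neurons remained after the sort, what the control plasmid encoded, or whether the pools of a group came from separate litters, so p-values measure only the spread between these pools.

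Microglia are the resident macrophages of the brain. They arise from yolk sac precursors, enter the cortex before birth, depend on the receptor CSF1R and the transcription factor PU.1 (gene Spi1), and clear dying cells and excess synapses in the newborn brain, in part through complement C1q. Macrophages at the brain's borders, in the meninges and around vessels, share many of their genes. Most of these genes are little expressed by neurons. In bulk RNA, fewer cells of a type and less RNA per cell cannot be told apart.

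Values are normalised counts, that is gene counts divided by 1 factor per library. Library depth lay between 115445910 and 138254412 counts, and 1 count was worth 0.883 to 1.05 normalised counts, so a marker at 10 rests on about that many reads. The labelled cell type was checked first. Cortical neuron markers such as Dcx, a microtubule protein of young neurons, and Tubb3, neuronal tubulin, had a median of 7845 normalised counts per kb of exon over 10 genes. Control 1 held the highest value of 33.8% of tested genes and the lowest of 36.6%, so values without it are given beside those it moves.

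The immune markers were faint in every library. Their summed level was 0.00248% to 0.00547% of all normalised counts, whereas the 10 neuron markers made up 0.495% to 0.556%. Scaled to exon length, the markers had a median of 29.6 normalised counts per kb, below that of vascular and meningeal markers (53.8 over 14 genes), oligodendrocyte lineage markers (1915 over 7 genes) and astrocyte markers (3039 over 8 genes). All 31 lay below the median tested gene (395 per kb). On the same scale the highest member was Csf1r at 296 per kb, above 45.3% of tested genes, followed by Lgals3 at 250 per kb and Cd68 at 219 per kb. The lowest was Ptprc (CD45), which marks all nucleated blood cells, at 0.766 per kb.

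**Figure D1:**
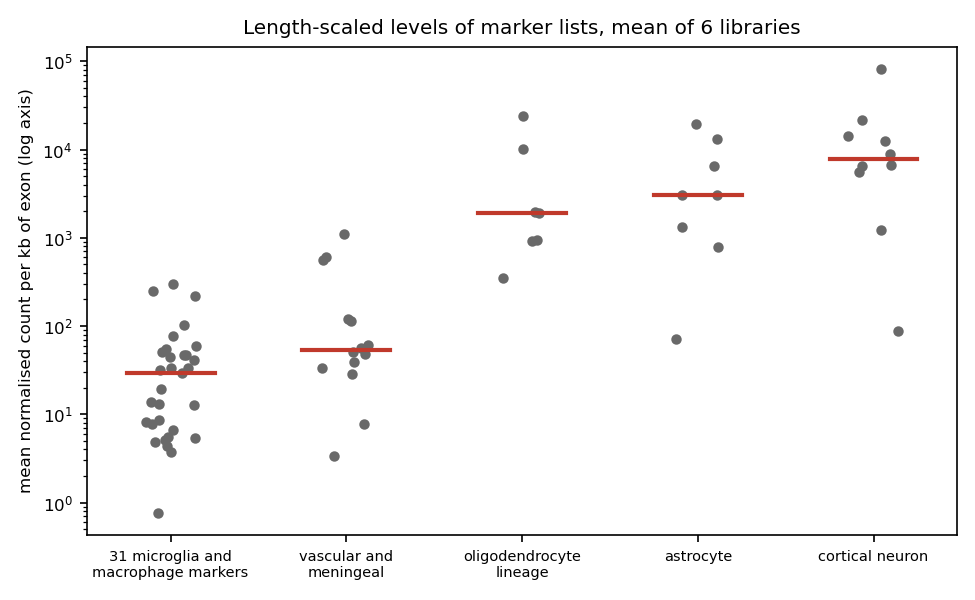
Mean normalised count per kb of exon over the 6 libraries (log axis) for each gene of 5 marker lists, with red bars at the list medians. The 31 microglia and macrophage markers have a median of 29.6 per kb, and the cortical neuron markers have 7845 per kb.

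Most of the summed level came from 4 of the markers. Csf1r, Lgals3, Olfml3 and Cd68 had mean levels above 200 normalised counts and together made up 59.1% to 77.9% of the sum in each library. The other 27 genes had lower means, 18 of them under 50. Of the 31, 30 passed the minimum mean of 10 and were tested. Pf4, the platelet factor also made by border macrophages, did not pass, with 3.94, 0 and 0 normalised counts in sponge libraries 1 to 3 and 6.002, 6.31 and 0 in control libraries 1 to 3.

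The summed level differed more between libraries than between groups. The summed level of the 31 genes was 3124, 4530 and 3471 normalised counts in sponge libraries 1 to 3, and 6826, 3775 and 3297 in control libraries 1 to 3. Control 1 had the most and sponge 2 came next, and the groups overlapped. Without the 4 high genes the sums were 1082, 1851 and 769 in the sponge libraries and 2784, 1018 and 800 in the control libraries, in the same order at the top. Of the 31 genes, 19 were highest in control 1 (61.3%, against 33.8% of all tested genes). Among the other 5 libraries, 18 of the 31 were highest in sponge 2 (14.0% of all tested genes were).

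**Figure D2:**
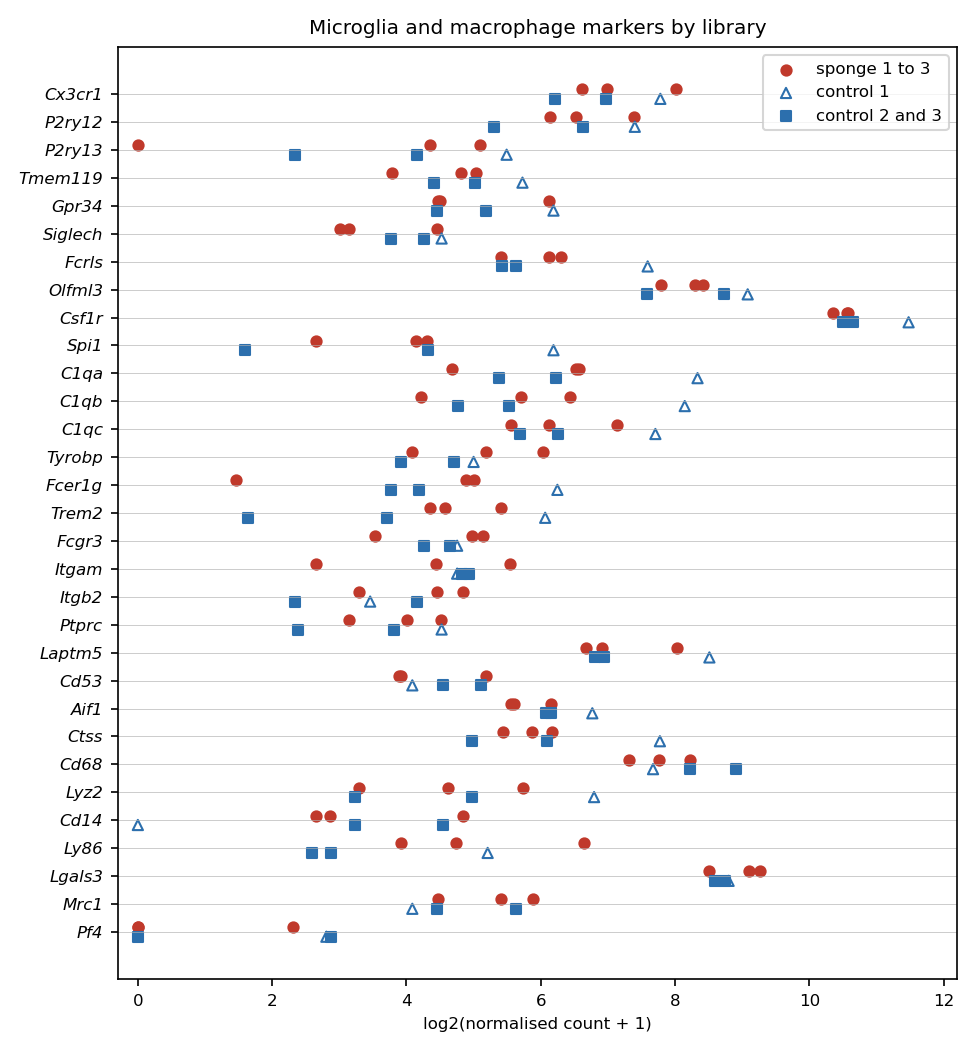
log2(normalised count + 1) of each of the 31 markers in each library, sponge libraries as red circles above, control libraries below in blue, with control 1 as an open triangle. Control 1 holds the highest value in 19 of 31 genes.

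The summed levels of haemoglobin genes and of neutrophil markers were also highest in control 1. The 4 haemoglobin genes Hba-a1, Hba-a2, Hbb-bs and Hbb-bt summed to 3306, 4003 and 2883 normalised counts in sponge libraries 1 to 3 and to 31564, 1243 and 2890 in control libraries 1 to 3. The 11 monocyte and neutrophil markers in the table summed to 18.7, 29.2 and 1.77 in the sponge libraries and to 316, 11.6 and 36.4 in the control libraries. Of the 11, 7 were highest in control 1 (33.8% of all tested genes were). S100a8, S100a9, Ngp and Ltf, singled out after their values were seen, made up 273 of the 316 in control 1. The 4 of the 11 not highest there, Camp, Mpo, Elane and Plac8, were highest in sponge 1 or sponge 2, at 14.8 or less. Sponge 2, next to control 1 in microglial transcripts, was also next in haemoglobin, whereas its sum of monocyte and neutrophil markers was below that of control 3. The 6 lymphocyte and mast cell markers in the table summed to 57.2, 75.02 and 127 in the sponge libraries and to 185, 78.9 and 97.1 in the control libraries. Of these 6 only Trbc2, a T cell receptor constant region, was highest in control 1, where it gave 173 of the 185. The T cell gene Cd3g and the B cell gene Cd79b were at 0 in 5 of the 6 libraries. The part of blood cells in the microglial levels was not tested.

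**Figure D3:**
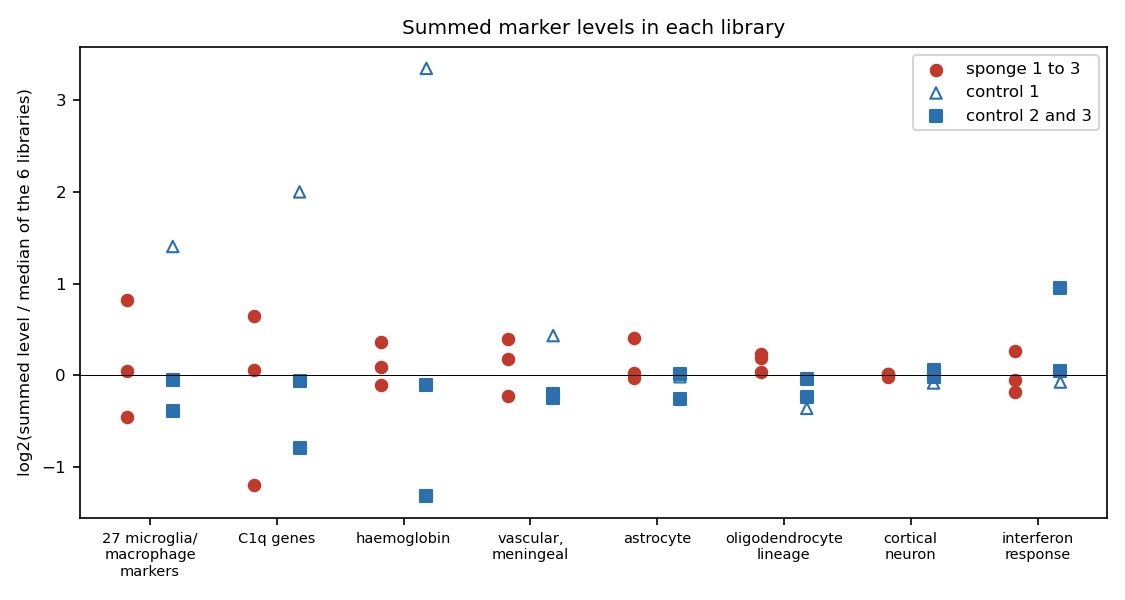
Summed normalised counts of 8 gene lists in each library, as log2 of the ratio to the list's median over the 6 libraries, sponge left and control right within each list. Control 1 (open triangle) is highest for the 27 lower microglia and macrophage markers, the C1q genes, haemoglobin and vascular genes, and the neuron list varies little.

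Surface and secreted proteins of microglia were covered by 8 genes. The fractalkine receptor Cx3cr1 had 96.6, 258 and 125 normalised counts in sponge libraries 1 to 3, against 219, 124 and 72.8 in control libraries 1 to 3. The ADP receptor P2ry12, which steers microglial processes towards injury, had 90.7, 167 and 69.8 in the sponge libraries, against 168, 97.8 and 38.4 in the control libraries. A P2ry12 exon overlaps an exon of Med12l on the other strand, which had 2276 to 5302 normalised counts per library, so reads of that overlap are uncertain. For both genes sponge 2 and control 1 were the high libraries and the groups overlapped. The related receptor P2ry13 had 0, 33.3 and 19.4 in the sponge libraries, against 44.0, 16.8 and 4.04 in the control libraries. Tmem119, a membrane protein of mature microglia, had 12.8, 27.1 and 31.8 in the sponge libraries, against 52.0, 31.5 and 20.2 in the control libraries. The lysophosphatidylserine receptor Gpr34, the lectin Siglech and the Fc receptor-like Fcrls were likewise highest in control 1, at 72.0, 22.0 and 192 normalised counts. In sponge 2 they had 68.8, 20.8 and 78.1, so Gpr34 and Siglech were nearly level in these libraries. Olfml3, a secreted matrix protein, was the most abundant of these 8 genes, with 220, 315 and 341 in the sponge libraries, against 541, 424 and 191 in the control libraries. Of the 8 genes, 6 had a log2 fold change below 0 and 2 above 0, and none passed the test. Without control 1, 5 were above 0 and 3 below.

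Csf1r, the receptor for the microglial growth factors CSF1 and IL-34 (chr18:61100598-61132149, GRCm38, plus strand), had 1301, 1515 and 1531 normalised counts in the sponge libraries, against 2854, 1609 and 1443 in the control libraries. The sponge libraries were alike, and control 1 alone stood high. The log2 fold change was −0.38 ± 0.26 (SE; limma adjusted p = 0.925), and −0.08 without control 1. Per kb of exon, Csf1r was 4.57 to 15.46 times Cx3cr1 within a library. An exon of Csf1r overlaps an exon of Hmgxb3 on the other strand, which had 6321, 6515 and 6800 in the sponge libraries and 6055, 6936 and 7045 in the control libraries. The counting's use of strand is not known here, so reads of the overlap cannot be assigned with certainty. The ligand gene Csf1 had 4528, 4103 and 4077 in the sponge libraries, against 4018, 4235 and 4330 in the control libraries, and Il34, the other ligand, had 48.3, 43.8 and 19.4 in the sponge libraries, against 100.03, 31.5 and 27.3 in the control libraries. Csf1 thus varied little, and Il34 was highest in control 1. Spi1, the gene of PU.1, had 18.7, 16.7 and 5.30 in the sponge libraries, against 72.0, 18.9 and 2.02 in the control libraries.

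The C1q genes encode the chains of the molecule that starts the classical complement pathway, and microglia are its main source in the brain. They lie next to each other on chromosome 4, on the minus strand, in the order C1qa, C1qc and C1qb of transcription. C1qa had 90.7, 93.8 and 24.7 normalised counts in the sponge libraries, against 322, 73.6 and 40.4 in the control libraries. C1qb had 51.3, 85.4 and 17.7 in the sponge libraries, against 282, 45.2 and 26.3 in the control libraries. C1qc had 69.0, 140 and 45.9 in the sponge libraries, against 208, 75.7 and 50.6 in the control libraries. The chains shared their extremes: control 1 was highest and sponge 3 lowest for each of them, and the sum per library was 211, 319 and 88.3 in the sponge libraries and 812, 195 and 117 in the control libraries. The ratio of C1qa to C1qc was 1.31, 0.672 and 0.538 in the sponge libraries and 1.55, 0.972 and 0.800 in the control libraries, so the chains did not keep a fixed ratio at these low counts. The log2 fold changes were −0.72 ± 0.83 for C1qa, −0.69 ± 0.93 for C1qb and −0.28 ± 0.62 for C1qc (SE). Without control 1 they were 0.13, 0.30 and 0.30, so the direction turned with that library.

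PU.1 binds purine-rich DNA around GGAA, and its preferred longer form GAGGAAGT was searched on both strands in RefSeq promoters (GRCm38.p6, 250 bases before to 50 after the start). A promoter was found for 23 of the 31 genes. The 8-base form was present in the promoters of 4 of these 23 genes (17.4%), C1qc, Cd53, Ctss and Pf4, and in 3.20% of all 32851 promoters. Its first 6 bases, GAGGAA, were present for 16 of the 23 genes (69.6%) and in 28.3% of all promoters. The shares differ in unit: the 23 genes had 25 promoters and a match in any counted, whereas the share over all is per promoter. A match is a string of letters and not a shown binding site. Of the 4 genes with the 8-base form, Cd53 was highest in sponge 2 and Pf4 in control 2. The promoters of C1qc and Ctss are given because both genes were highest in control 1, with the 8-base match in capitals, which in both lies on the opposite strand as ACTTCCTC. C1qc lies at chr4:136892865-136893164, minus strand, and Ctss at chr3:95526536-95526835, plus strand.
C1qc: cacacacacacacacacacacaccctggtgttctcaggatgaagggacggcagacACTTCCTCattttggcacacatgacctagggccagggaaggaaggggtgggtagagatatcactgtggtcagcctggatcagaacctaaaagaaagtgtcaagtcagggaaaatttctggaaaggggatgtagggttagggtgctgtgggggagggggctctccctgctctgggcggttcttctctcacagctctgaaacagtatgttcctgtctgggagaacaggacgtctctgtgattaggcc
Ctss: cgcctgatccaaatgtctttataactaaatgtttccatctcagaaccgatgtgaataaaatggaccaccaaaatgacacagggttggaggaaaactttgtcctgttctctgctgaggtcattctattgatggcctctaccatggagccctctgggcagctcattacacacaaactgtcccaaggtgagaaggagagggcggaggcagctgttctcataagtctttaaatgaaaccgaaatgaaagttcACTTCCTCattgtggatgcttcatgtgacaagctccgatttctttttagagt
The match began 195 bases before the start of C1qc and 2 bases before that of Ctss.

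The adaptors Tyrobp (DAP12) and Fcer1g carry the signalling tails for many myeloid receptors. Tyrobp had 35.5, 64.6 and 15.9 normalised counts in the sponge libraries, against 31.01, 25.2 and 14.2 in the control libraries. Fcer1g had 28.6, 31.3 and 1.77 in the sponge libraries, against 75.02, 12.6 and 17.2 in the control libraries. Tyrobp was highest in sponge 2 and Fcer1g in control 1, and both had overlapping groups. Trem2, the lipid receptor that signals through DAP12, had 41.4, 22.9 and 19.4 in the sponge libraries, against 66.0, 2.10 and 12.1 in the control libraries. All sponge values lay above control 2 and control 3 and below control 1. Its log2 fold change was 0.97 ± 1.07 (SE) and, without control 1, 2.11, where the unadjusted limma p was 0.0268 and the adjusted p = 0.650. The IgG receptor Fcgr3 had 30.6, 34.4 and 10.6 in the sponge libraries, against 26.0, 24.2 and 18.2 in the control libraries, and its close relatives Fcgr2b and Fcgr4 were at 34.5 or less in every library.

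Of 6 genes for integrins and other proteins of most leukocytes, 3 were highest in control 1. The lysosomal membrane protein gene Laptm5 had 119, 259 and 101 normalised counts in the sponge libraries, against 364, 122 and 111 in the control libraries. Aif1, which encodes the microglial stain IBA1, had 46.3, 69.8 and 47.7 in the sponge libraries, against 108, 70.5 and 66.7 in the control libraries. Its groups overlapped, and the fitted log2 difference was −0.56 ± 0.37 (SE; limma adjusted p = 0.925), and −0.35 without control 1. The integrin chains Itgam (CD11b) and Itgb2 (CD18), which pair as complement receptor 3, did not peak in control 1. Itgam had 20.7, 45.8 and 5.30 in the sponge libraries, against 26.0, 29.4 and 27.3 in the control libraries, and Itgb2 had 27.6, 20.8 and 8.83 in the sponge libraries, against 10.003, 16.8 and 4.04 in the control libraries. Itgam shares exon sequence with Gm49368 on the same strand, which had 15.8, 31.3 and 5.30 in the sponge libraries and 24.006, 29.4 and 27.3 in the control libraries, so the reads of both genes are uncertain. The tetraspanin Cd53 reached 35.4 in sponge 2 and 33.7 in control 2, and Ptprc did not exceed 22.0 in any library.

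Of 6 lysosomal and innate recognition genes, 2 were highest in control 1. The protease cathepsin S, Ctss, had 71.0, 57.3 and 42.4 normalised counts in the sponge libraries, against 218, 67.3 and 30.3 in the control libraries. Lysozyme, Lyz2, had 23.7, 52.1 and 8.83 in the sponge libraries, against 110, 8.41 and 30.3 in the control libraries. Both were highest in control 1, and in sponge 2 Lyz2 was next while Ctss was below sponge 1 and control 2. Ly86 (MD-1), a partner of the receptor RP105, had 25.6, 99.0 and 14.1 in the sponge libraries, against 36.0, 6.31 and 5.06 in the control libraries, with 1.54 ± 0.96 as log2 fold change (SE; limma adjusted p = 0.925). Without control 1 the groups did not overlap, the log2 fold change was 2.37, the unadjusted p was 0.0170 and the adjusted p = 0.645. Cd180, the gene of RP105 itself, had 81.8, 100.02 and 65.4 in the sponge libraries, against 21.0, 46.3 and 34.4 in the control libraries. Its groups did not overlap (log2 fold change 1.31 ± 0.42, SE; limma adjusted p = 0.925; 1.01 without control 1), and it was singled out after its values were seen.

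The other genes of this role followed their own order. Cd68, a lysosomal protein of phagocytes, had 159, 299 and 216 normalised counts in the sponge libraries, against 203, 297 and 478 in the control libraries. It was highest in control 3, where most microglial genes were low, and its log2 fold change was −0.50 ± 0.38 (SE). Without control 1 the log2 fold change was −0.79, where limma gave an unadjusted p of 0.0274 and an adjusted p = 0.650. The gene starts 782 bases after the end of Eif4a1 on the same strand, and Eif4a1 had 64583, 68226 and 70651 in the sponge libraries and 96775, 73788 and 61594 in the control libraries. Lgals3, galectin-3, had 363, 550 and 615 in the sponge libraries, against 444.1, 428 and 384 in the control libraries. Cd14, the lipopolysaccharide co-receptor, had 27.6, 6.25 and 5.30 in the sponge libraries, against 0, 8.41 and 22.2 in the control libraries. Cd14 was thus listed at 0 in the library with the most microglial transcripts. Mrc1 (CD206), a mannose receptor of border macrophages, was lowest there too, with 58.1, 41.7 and 21.2 in the sponge libraries and 16.004, 21.0 and 48.5 in the control libraries.

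**Figure D4:**
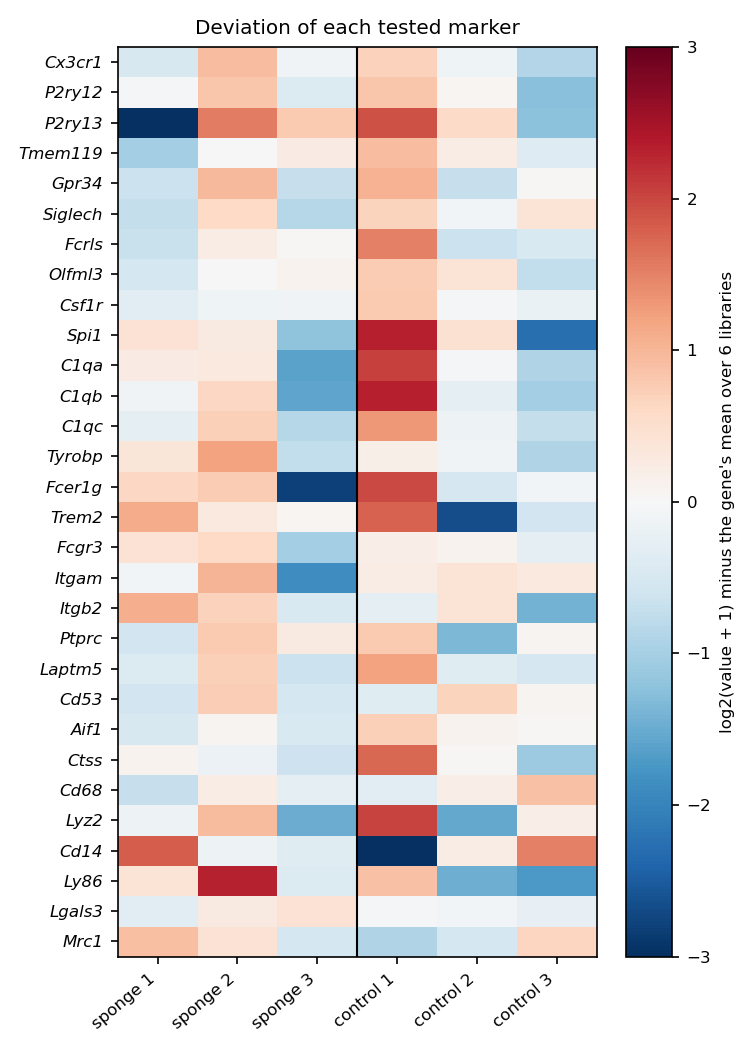
Deviation of each of the 30 tested markers from its own mean over the 6 libraries, on the log2(value + 1) scale, sponge libraries left of the line and control libraries right (colours end at −3 and 3). Control 1 and sponge 2 are mostly red, sponge 3 and control 3 mostly blue, and Cd68, Cd14 and Mrc1 depart from that order.

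Between the groups, no marker passed the test. With limma on log2(value + 1), 0 of the 30 tested genes had an adjusted p under 0.05 (0% of all 22479 tested genes had one), and the smallest adjusted p among them was 0.925. None of the 30 reached an unadjusted p under 0.05 (2.89% of all tested genes did, 1.58% on the higher and 1.31% on the lower side). Log2 fold changes below 0 were found in 20 of 30 genes (49.1% of all tested genes), and the median was −0.28, where that of all tested genes was 0.01. The spread was wide: the SE of a fold change had a median of 0.64 among the markers and 0.24 among all tested genes. In 0 of 30 markers did the groups not overlap, against 11.2% of all tested genes. The summed level averaged 3709 ± 732 normalised counts over the 3 sponge libraries and 4633 ± 1914 over the 3 control libraries (SD), a ratio of 0.801.

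Without control 1 the direction turned. The median log2 fold change was then 0.25 (0.01 over all tested genes), with 20 of 30 markers above 0 (51.9% of all tested genes), and 12 of the 30 had changed sign. No marker passed (2 genes, or 0.00893%, did among all 22404 tested), and 3 had an unadjusted p under 0.05, namely Trem2, Ly86 and Cd68 (7.54% of all tested genes). Of the 30, Trem2 and Ly86 then had every sponge value above both control values, as did 13.4% of all tested genes. The summed level was 3709 in the sponge libraries against 3536 in control 2 and control 3 (ratio 1.05), and that of the 27 lower genes was 1234 against 909 (ratio 1.36). Without sponge 3 the median was 0.09, while the log2 ratio of the summed level was −0.28, against −0.32 over all libraries. When sponge 2, the library with the next highest sum after control 1, was left out instead, the median was −0.52. Then 8 of 30 markers were above 0, and the log2 ratio of the summed level was −0.49. In the authors' deposited table, which holds 10812 genes with a mean above 1003 and called 1 gene (0.00925%) at an adjusted p under 0.05, Csf1r was the only marker, with a log2 fold change of −0.44, a p-value of 0.107 and an adjusted p of 0.995.

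**Figure D5:**
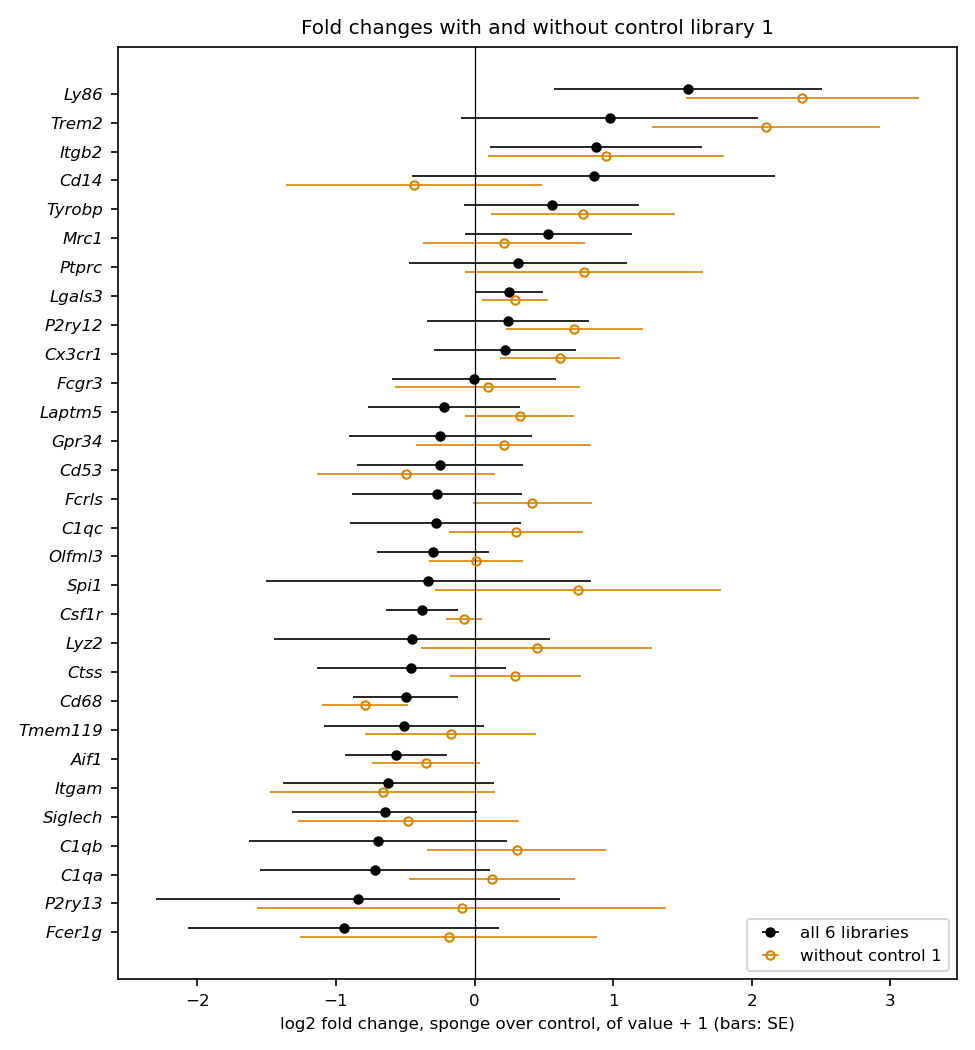
Log2 fold change, sponge over control, of log2(value + 1) for the 30 tested markers, with SE bars, over all 6 libraries (filled) and without control 1 (open). The median is −0.28 over all 6 libraries and 0.25 without control 1, and most bars cross 0.

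A second list of 50 other microglia and macrophage genes was also faint and often highest in control 1. It had a median of 13.5 normalised counts per kb. Of its 50 genes, 25 were highest in control 1 (33.8% of all tested genes were). Of its 46 tested genes, 20 had a log2 fold change above 0 and 26 below 0 (median −0.07, and 0.10 without control 1), and 0 passed the test, with 3 at an unadjusted p under 0.05. The most abundant was Sall1, a transcription factor also used by neural progenitors. It had 15190, 12407 and 13784 in the sponge libraries, against 8411, 12847 and 12739 in the control libraries, the lowest value being that of control 1. Groups did not overlap for Dock2 and Cd180 on the higher side (6.17% of all tested genes) and for Ncf1, Cd37 and Ccl4 on the lower side (5.04%), which were named after their values were seen. The chemokine gene Ccl4 had 0, 2.08 and 5.30 in the sponge libraries, against 43.0, 14.7 and 6.07 in the control libraries. Its log2 fold change was −2.66 ± 1.10 (SE; limma adjusted p = 0.925).

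Genes of border macrophages and of phagocytic microglia were set beside these. Of 10 border macrophage genes measured, 5 were tested, and 4 had a log2 fold change above 0. Their median was 0.59, and 0.24 without control 1, while the summed level had a ratio of 1.05. By limma 0 of the 5 passed the test and 0 reached an unadjusted p under 0.05. Stab1, a scavenger receptor shared with vessel lining, had 778, 700.2 and 664 in the sponge libraries, against 938, 636 and 570.3 in the control libraries. Lyve1 was listed at 0 in 4 of 6 libraries. Among 14 genes of the phagocytic state seen in newborn white matter, 8 were highest in control 1 (33.8% of all tested genes were). Of its 11 tested genes, 6 had a log2 fold change above 0 (median 0.04) and 0 passed the test. Without control 1, 9 of the 11 were above 0 (median 0.25), again with 0 past the threshold. Then 6 had an unadjusted limma p under 0.05, against 7.54% of all tested genes. Named after their values were seen, these were Gpnmb and the abundant Apoe, Cd9, Cd63, Ctsb and Ctsl. Above 0 without control 1 were also 7 of 7 oligodendrocyte lineage, 12 of 14 vascular and meningeal and 7 of 8 astrocyte markers. The share over all tested genes was 51.9%. In these lists 5, 3 and 2 genes had an unadjusted limma p under 0.05. Among cortical neuron markers 4 of 10 were above 0, with 1 under 0.05. Over all 6 libraries these lists had 7, 7, 6 and 6 genes above 0, in the order named. An unadjusted limma p under 0.05 was then found for 4, 0, 1 and 0 genes. Gpnmb, a lysosomal glycoprotein singled out after its values were seen, had 91.7, 56.3 and 27.4 in the sponge libraries, against 4.001, 11.6 and 16.2 in the control libraries. Its groups did not overlap, with 2.37 ± 0.69 as log2 fold change (SE; limma unadjusted p = 0.00970, adjusted p = 0.925). Most of the phagocytic list's abundant genes are made by other brain cells too, as with Apoe, the lipid carrier, at 71059, 58345 and 54314 in the sponge libraries and 94682, 51695 and 42070 in the control libraries. Spp1, osteopontin, also picked after its values were seen, had 128, 498 and 8.83 in the sponge libraries, against 181, 21.0 and 33.4 in the control libraries, highest in sponge 2. Interferon response genes had their highest sum in control 3 (28407), a library with low microglial sums.

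The sponge was built to draw off miR-17-5p, so seed matches were looked for among the markers. A microRNA lowers targets whose 3′ UTR pairs with its seed, bases 2 to 8, in capitals below. The mature sequence from RefSeq (GRCm38.p6, chr14:115043684-115043706, plus strand) is shown first, followed by the 3 matches found, with the site GCACTTT in capitals. C1qa lies at chr4:136895943-136895971, minus strand, Olfml3 at chr3:103731686-103731714, minus strand, and Trem2 at chr17:48352224-48352252, plus strand, each in an annotated 3′ UTR (GENCODE M21, GRCm38).
miR-17-5p: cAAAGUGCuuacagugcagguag
C1qa: ccagtggtttctttaaGCACTTTctggaa
Olfml3: gaacttagatccaaggGCACTTTccctcc
Trem2: ttgtctgtcaacttctGCACTTTggacat
Such a match was present in 3 of 31 markers (9.68%) and in 15.002% of 15198 tested genes whose longest 3′ UTR reached 50 bases. The longest 3′ UTR had a median length of 493 bases among the markers and 1167 bases among the tested genes. Of the 3 genes, C1qa and Olfml3 had log2 fold changes of −0.72 and −0.30, and Trem2 had 0.97, none past the threshold. Without control 1 the values were 0.13, 0.01 and 2.11. Whether the cells that made these transcripts held the sponge was not tested, so the fold changes do not show how the sites act.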

How the data were processed

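Messenger RNA was sequenced from 3 sponge and 3 control libraries made with a stranded ligation kit, per the labels. STAR 2.7.6a and DESeq2 1.30.1 with builds mm10 and GRCm38 are named in the submitters' processing notes. For annotation and read counting, neither tool nor strandedness was given in the sources used here. Deposited values are a linear signal, gene counts divided by 1 factor per library, as the table's title and its even steps show. Count models were not run. The authors' second table gives log2 fold changes, p-values and mean signal per gene, per the file headers.

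Genes with a mean of at least 10 entered limma 3.58.1 (R 4.3.3) as log2(value + 1) (trend, robust, two-sided, Benjamini-Hochberg adjustment over 22479 genes, threshold 0.05), after the fit had been tested on simulated data. The added 1 shrinks log2 differences between low values, so changes of low genes can be understated. A log2 fold change can also exceed the log2 ratio of the group means where 1 library is near 0. Trem2, at 2.10 in control 2, had a log2 fold change of 0.97 with group means of 27.9 (sponge) and 26.8 (control). Levels between genes were compared per kb of exon, from GENCODE M21 on GRCm38, which held 35389 of the 35510 identifiers. The members and lists were chosen with earlier results of these data known. The text names all 31 members, up to 3 genes of highest mean from other lists where they bear on a result, defining markers of other cell types, and genes said to be chosen after their values were seen. Alternatives left out each library, scaled to totals, used pseudocounts of 0.5 and 8, no minimum mean or one of 50, a replicate block or array quality weights.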

Additional observations from a re-analysis of the deposited data

How the results depend on the processing

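No marker passed the threshold under any alternative run. Over all genes, 0 were called and 650 had an unadjusted p under 0.05. Leaving out 1 library in turn gave 0 to 2 calls, the 2 without control library 1, and array quality weights, which stopped short of their convergence tolerance, gave 4. With the replicate number as a block, 0 genes were called and 527 had an unadjusted p under 0.05. Deviations of same-numbered libraries correlated at 0.00957, 0.00544 and −0.0532, and those of differently numbered libraries at −0.0539 to 0.0711. No pairing by number was seen in these values, and whether libraries shared a litter, batch or day was not tested. The unadjusted counts were 316 without sponge library 3, 357 without sponge library 1, 363 without sponge library 2, 1690 without control library 1, 1191 without control library 3 and 1744 with array weights.

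The median log2 fold change of the markers ran from −0.53 to 0.25, and the summed level from −0.52 to 0.07 (log2 ratio), when 1 library was left out. Under the other settings the median stayed between −0.30 and −0.05. Without the 4 highest markers and control 1, an alternative chosen after seeing the data, the ratio was 0.44, against −0.32 for all. Of 30 markers, 10 kept their sign whichever library was left out. For the other 20 the log2 fold change ran from −1.36 to 0.13 (C1qa), −1.38 to 0.30 (C1qb), −0.71 to 0.30 (C1qc), −0.44 to 1.26 (Cd14), −0.68 to 0.018 (Cd53), −1.11 to 0.29 (Ctss), −0.19 to 0.62 (Cx3cr1), −1.56 to 0.22 (Fcer1g), −0.30 to 0.50 (Fcgr3), −0.67 to 0.42 (Fcrls), −0.79 to 0.21 (Gpr34), −1.29 to 0.16 (Itgam), −0.63 to 0.32 (Laptm5), −1.33 to 0.45 (Lyz2), −0.74 to 0.0106 (Olfml3), −0.33 to 0.72 (P2ry12), −1.82 to 0.73 (P2ry13), −0.28 to 0.79 (Ptprc), −1.55 to 0.74 (Spi1) and −0.11 to 2.11 (Trem2). Array weights turned C1qc to 0.0907, Cd14 to −0.21, Fcrls to 0.53, Gpr34 to 0.51, Laptm5 to 0.29 and Lyz2 to 0.86, and a pseudocount of 8 turned Fcgr3 to 0.0279. The cause was not tested. Tests by edgeR and DESeq2 on recovered reads were not run. Of the 31 markers, 18 had a mean under 50 normalised counts. The SE had a median of 0.64 and ran from 0.24 to 1.46, and differences larger than the SE could also be missed. Even Ly86, at 1.54 ± 0.96 (SE), had an unadjusted limma p of 0.151. The parts of depth and of spread between libraries were not tested.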
